A study of Mus musculus with 8 samples.

Results

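The transcription factors of the naive pluripotency network were followed through *in vitro* corticogenesis. They were *Pou5f1*, *Sox2*, *Nanog*, *Esrrb*, *Klf2*, *Klf4*, *Klf5*, *Tfcp2l1*, *Prdm14* and *Tbx3*, chosen by symbol, and all 10 were found among the 26263 genes of the deposited count tables. Poly(A) RNA was sequenced from male hybrid mouse embryonic stem cells (ESCs) and from neural precursor cells (NPCs) collected at day 12 of corticogenesis, with 2 libraries in each of the 4 groups and 8 libraries in all. B/J cells are the line BJE2, from a cross of C57BL/6 females with JF1 males. J/B cells are the line JBE6, from the reciprocal cross. Each cross is thus represented by a single line, and a difference between crosses cannot be told apart from one between lines. ESCs grew on gelatin in ESGRO complete plus medium, which holds LIF, BMP4 and an inhibitor of GSK3-β. For corticogenesis the cells were moved to Matrigel and a defined medium with B27 and a dorsomorphin homolog. Nothing in the labels says that the 2 libraries of a group came from separate differentiations, so p-values measure the spread between these libraries only.

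The 10 factors bind DNA at the enhancers of one another's genes and of many other genes used by ESCs, and together they hold the cells in an undifferentiated state. *Pou5f1* (OCT4), *Sox2* and *Nanog* form the core. LIF acts through STAT3 on *Klf4* and *Tfcp2l1*, and inhibition of GSK3 relieves repression by TCF7L1 at *Esrrb*, *Nanog* and *Klf2*, among others. On exit from pluripotency most of the network is switched off, whereas SOX2 is also a factor of neural precursors, where it is known to work with other POU proteins, and KLF4, KLF5 and TBX3 are known from epithelial tissues.

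Reads counted on genes ranged from 22537138 to 32706015 per library. Levels are given as normalised CPM, that is counts scaled to a common depth of reads on genes (CPM) with TMM factors, so that 1 count was worth between 0.0256 and 0.0533 CPM. TMM factors were 0.820 to 0.885 in ESCs and 1.14 to 1.21 in NPCs. Over the genes tested, the median change between the stages on the log2 scale was 0.17 with TMM, 0.65 with library totals and 0.80 with 3 housekeeping genes (*Gapdh*, *Gusb*, *Tbp*) as the scale, and changes are read against these medians. Of all genes tested, 37.5% were called higher in NPCs and 31.9% lower. In the NPC libraries, 7 of 8 neural precursor markers were higher than in ESCs, and their summed level was 325 to 427 CPM in ESCs and 655 to 1607 CPM in NPCs. *Pax6* alone among them was not called with TMM, and was with library totals. Of 5 neuron markers 4 were higher and *Stmn2* lower, and their sum was 296 to 439 CPM in ESCs and 236 to 1309 CPM in NPCs, with NPC B/J replicate 1 at 236 CPM below every ESC library. All 9 trophoblast markers (summed 15.1 to 88.8 CPM in ESCs and 1136 to 3141 CPM in NPCs, led by *Krt8*), all 8 markers of fibroblasts and mesenchyme (9.68 to 80.1 CPM and 777 to 1915 CPM, led by *Col3a1*) and 4 of 4 squamous markers (at most 0.907 CPM and 14.5 to 73.6 CPM, led by *Trp63*) were also higher in NPCs. The 4 endoderm markers tested were higher as well (sum of 3.25 to 6.08 CPM and 13.6 to 64.5 CPM), and of 5 mesoderm markers 2 were lower and 1 higher. *Tpbpa*, *Pappa2* and *Krt15* had no count in any ESC library. The part of these markers in the results was not tested. In bulk RNA such as this, fewer cells of a type and less RNA per cell cannot be told apart.

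The stretches of DNA just before the annotated start sites of 3 factors are shown because they hold letters that factors of the network are known to read. Start sites are those of the canonical transcripts of GENCODE vM39 on GRCm39. *Pou5f1* (chr17:35816539-35816788, plus strand) and *Sox2* (chr3:34704304-34704553, plus strand) are shown for the 250 bases before the start. *Nanog* (chr6:122684368-122684391, plus strand) is shown from 119 to 96 bases before it. Capitals mark the matches, read 5′ to 3′ along the gene.
Pou5f1: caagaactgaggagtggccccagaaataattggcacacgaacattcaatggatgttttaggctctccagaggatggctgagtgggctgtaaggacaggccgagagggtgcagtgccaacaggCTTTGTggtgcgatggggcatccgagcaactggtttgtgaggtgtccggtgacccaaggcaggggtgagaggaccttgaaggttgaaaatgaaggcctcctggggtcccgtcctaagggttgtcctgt
Sox2: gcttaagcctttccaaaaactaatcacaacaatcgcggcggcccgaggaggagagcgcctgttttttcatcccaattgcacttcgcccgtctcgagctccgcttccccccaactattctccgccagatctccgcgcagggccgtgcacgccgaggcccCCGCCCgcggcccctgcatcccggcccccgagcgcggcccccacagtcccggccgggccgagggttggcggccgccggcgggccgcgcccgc
Nanog: cttctTTTGCATTACAATGtccat

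In *Nanog* the capitals join TTTGCAT, the core of the octamer bound by POU factors, and ACAATG, a SOX site, with 1 base between them. The octamer core followed after 1 base by ACAA was found in 4 of the 21751 promoters of 250 bases searched on both strands (0.0184%), and *Nanog* was the only one of the 10 factors among them. TTTGCAT by itself was found in 4.03% of promoters and ACAATG in 9.41%. In *Pou5f1* the capitals are CTTTGT, the reverse complement of the SOX site ACAAAG, present in 15.9% of promoters. In *Sox2* they are CCGCCC, the reverse complement of the GC box GGGCGG. That box was found in 5 of the 10 factors (*Sox2*, *Klf2*, *Klf4*, *Klf5* and *Tbx3*) and in 36.3% of all promoters. The T-box site GGTGTGA (3.23%) and the STAT site TTCNNNGAA (7.70%) were found in none of the 10. These windows leave out the distal enhancers of the genes, and a match of letters is no evidence of binding.

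The first question was how far each factor fell between ESCs and NPCs. All 10 were lower in NPCs, over both crosses and within each cross, by edgeR's quasi-likelihood test (Benjamini-Hochberg adjusted p below 0.05 over the 16399 genes tested). Over both crosses, 31.9% of genes were called lower and 37.5% higher. Within B/J the shares were 25.6% lower and 30.1% higher, and within J/B 25.3% lower and 29.1% higher. With library totals 20.9% of genes were called lower over both crosses and with the housekeeping genes 17.2%. Of the genes called in either direction, 54.0% were higher in NPCs with TMM, 70.1% with totals and 75.0% with the housekeeping genes. For all 10 factors every NPC library lay below every ESC library, as for 31.2% of the genes tested. The 10 had a median log2 fold change of -5.35, against 0.17 over the genes tested.

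The sizes of the falls given for each factor are those with TMM. With the housekeeping genes all 10 were smaller by over 1.5 times, from 48.2-fold for *Pou5f1* (-5.59 on the log2 scale) to 3.09-fold for *Sox2* (-1.63). Leaving out NPC B/J replicate 2 made 3 falls larger by over 1.5 times, to -2.85 for *Sox2*, -6.37 for *Nanog* and -6.85 for *Prdm14*. No other single library moved a factor that far over both crosses. With the libraries numbered 1 alone *Prdm14* was at -7.78 and *Esrrb* at -7.24, and with those numbered 2 alone at -4.14 and -5.02, and all of these falls were called by edgeR.

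**Figure D1:**
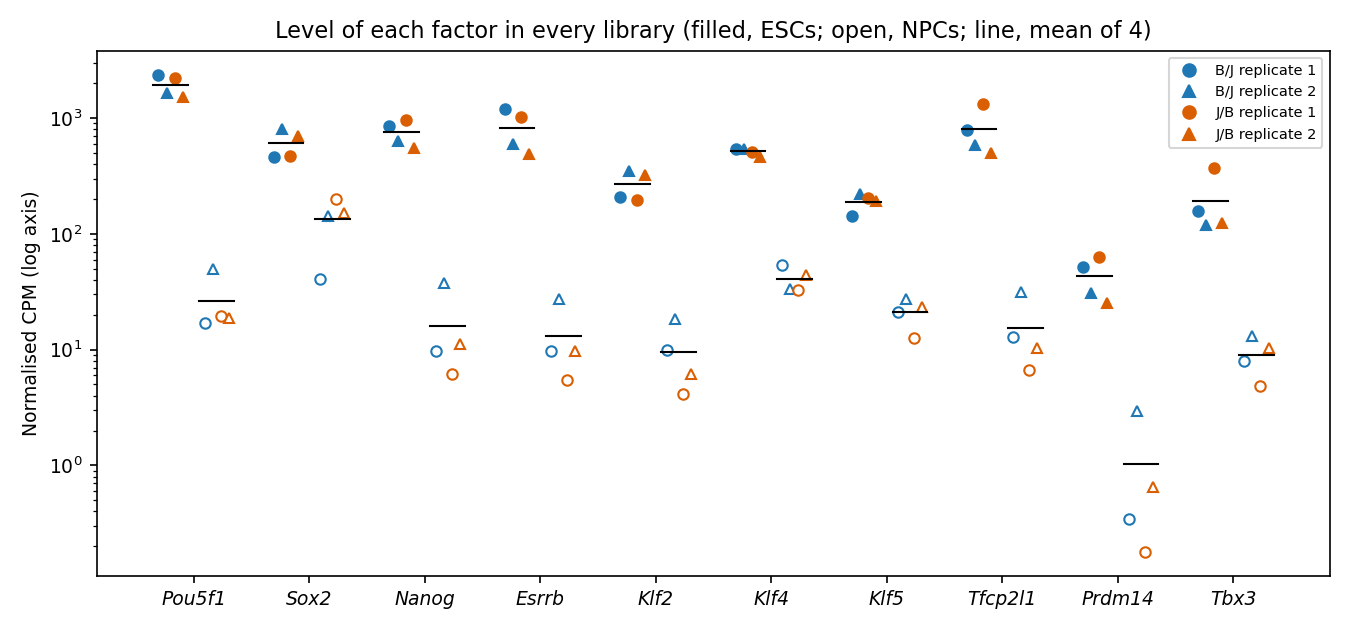
Normalised CPM (log axis) of the 10 factors in the 8 libraries, with ESCs filled, NPCs open, colours for the crosses, circles for replicate 1, triangles for replicate 2 and a line at the mean of 4 libraries. No factor overlaps between the stages; *Sox2* has the highest NPC mean (134 CPM) and *Prdm14* the lowest (1.03 CPM).

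*Pou5f1* (chr17:35816789-35822274, plus strand, 5 exons in the canonical transcript), which encodes the POU factor OCT4, was read in ESCs at 2378 and 1643 CPM in B/J replicates 1 and 2 and at 2219 and 1527 CPM in J/B. Its NPC values were 17.1 and 49.98 CPM in B/J and 19.5 and 18.8 CPM in J/B. The other NPC libraries thus lay close together, with B/J replicate 2 above them. Its ESC mean was 1942 ± 419.7 CPM (SD over 4 libraries) and its NPC mean 26.3 ± 15.8 CPM. The fit gave a fall of 76.6-fold, or -6.26 on the log2 scale, with a standard error of 0.403 and an adjusted p of 2.2e-05 in edgeR. This was the 60th largest fall among the genes tested. GENCODE lists 7 genes named as *Pou5f1* pseudogenes, with which reads may be shared despite the minimum mapping quality of 20, so its lowest values are uncertain.

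*Nanog* (chr6:122679780-122691601, plus strand, 4 exons), a homeodomain factor, was read at 855 and 633 CPM in B/J ESCs and at 971 and 548 CPM in J/B ESCs. In NPCs it was at 9.66 and 37.3 CPM in B/J and at 6.22 and 11.1 CPM in J/B. The stages were far apart, and the highest NPC library was again B/J replicate 2, here 6.01 times the lowest. Its log2 fold change was -5.72 (standard error 0.510, adjusted p = 6.3e-05 in edgeR). It too has named pseudogenes, 2 in GENCODE.

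*Sox2* (chr3:34704554-34706610, plus strand, 1 exon), the HMG-box partner of OCT4, kept the largest share of its ESC level in all NPC libraries but B/J replicate 1. It was read at 461 and 811 CPM in B/J ESCs and at 470.0 and 705 CPM in J/B ESCs. NPC libraries gave 40.9 and 144 CPM in B/J and 199.5 and 151 CPM in J/B. B/J replicate 1 thus stood below the other NPC libraries. Its log2 fold change was -2.27 (standard error 0.404, adjusted p = 0.0016 in edgeR), or 4.81-fold.

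In B/J the log2 fold change of *Sox2* was -2.78 (standard error 0.584) and in J/B -1.75 (standard error 0.562, adjusted p = 0.0314 in edgeR). The call in J/B was lost with library totals (-1.27, adjusted p = 0.0976), with the housekeeping genes (-1.03, adjusted p = 0.185) and without a filter on low counts (-1.72, adjusted p = 0.0864). It was also lost without ESC J/B replicate 2 (-1.41, adjusted p = 0.112), NPC J/B replicate 1 (-1.99, adjusted p = 0.0779) or NPC J/B replicate 2 (-1.56, adjusted p = 0.147). Over its alternatives the adjusted p lay between 0.0032 and 0.185. NPC B/J replicate 1, the library lowest in *Sox2*, also had the lowest sum of neural precursor markers (655 CPM, against 1246 to 1607 CPM in the other NPC libraries) and the highest sum of trophoblast markers (3141 CPM, against 1136 to 1682 CPM). Their part in its *Sox2* level was not tested.

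*Esrrb* (chr12:86407887-86568409, plus strand, 7 exons), an orphan nuclear receptor and a target of the GSK3 branch, was read at 1197 and 592 CPM in B/J ESCs and at 1029.7 and 488 CPM in J/B ESCs. In NPCs it was at 9.68 and 27.4 CPM in B/J and at 5.45 and 9.72 CPM in J/B. The log2 fold change was -6.12 (standard error 0.516, adjusted p = 5.1e-05 in edgeR), or 69.5-fold.

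*Tfcp2l1* (chr1:118555636-118612915, plus strand, 15 exons), a factor of the CP2 family and a target of LIF signalling, was read at 785 and 588 CPM in B/J ESCs and at 1336 and 498 CPM in J/B ESCs. NPC libraries gave 12.9 and 31.3 CPM in B/J and 6.65 and 10.2 CPM in J/B. Its ESC libraries differed by 2.68 times, and the log2 fold change between the stages was -5.86 (standard error 0.467, adjusted p = 4.2e-05 in edgeR).

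The Krüppel-like factors are zinc finger proteins that bind GC-rich sites and can in part replace each other in ESCs. *Klf2* (chr8:73072726-73075502, plus strand, 3 exons) was read at 207 and 348 CPM in B/J ESCs and at 196 and 325 CPM in J/B ESCs. In NPCs it was at 9.94 and 18.3 CPM in B/J and at 4.17 and 6.10 CPM in J/B, so both J/B libraries lay below both B/J libraries. Its log2 fold change was -4.98 (standard error 0.334, adjusted p = 2.5e-05 in edgeR).

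*Klf4* (chr4:55527139-55532528, minus strand, 5 exons) had the most even level in ESCs, at 542 and 547 CPM in B/J and at 514 and 461 CPM in J/B, a coefficient of variation of 7.64%. Its NPC values were 53.8 and 33.7 CPM in B/J and 32.6 and 44.3 CPM in J/B. B/J replicate 1, the lowest NPC library for *Sox2*, was the highest for *Klf4*. The log2 fold change was -3.65 (standard error 0.200, adjusted p = 1.5e-05 in edgeR).

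*Klf5* (chr14:99536086-99552473, plus strand, 4 exons) was read at 142 and 221 CPM in B/J ESCs and at 203 and 191 CPM in J/B ESCs. NPC libraries gave 20.9 and 27.6 CPM in B/J and 12.6 and 23.4 CPM in J/B. The log2 fold change of *Klf5*, -3.18 (standard error 0.253, adjusted p = 4.2e-05 in edgeR), was the smallest after that of *Sox2*. *Klf4* and *Klf5* are also known from trophoblast or squamous epithelium. In NPCs the trophoblast marker sum was 1136 to 3141 CPM and the squamous sum 14.5 to 73.6 CPM. The part of these cells in the *Klf* levels left in NPCs was not tested.

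*Prdm14* (chr1:13183405-13198351, minus strand, 8 exons), a PR-domain protein of ESCs and primordial germ cells, had the lowest level. It was read at 51.7 and 31.0 CPM in B/J ESCs and at 63.6 and 25.2 CPM in J/B ESCs. In NPCs it was at 0.342 CPM (12 counts, 95% exact Poisson interval 0.177 to 0.597 CPM) and 2.97 CPM (93 counts, 2.40 to 3.64 CPM) in B/J. In J/B it was at 0.179 CPM (7 counts, 0.0720 to 0.369 CPM) and 0.646 CPM (20 counts, 0.395 to 0.998 CPM). These intervals cover counting error only, and the spread between the libraries was larger. The log2 fold change was -5.71 (standard error 0.755, adjusted p = 0.00036 in edgeR).

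*Tbx3* (chr5:119806298-119822797, plus strand, 7 exons), a T-box repressor, was the most uneven of the 10 in ESCs. It was read at 159 and 119 CPM in B/J ESCs and at 372 and 125 CPM in J/B ESCs, so that J/B replicate 1 stood apart. In NPCs it was at 7.92 and 13.1 CPM in B/J and at 4.81 and 10.3 CPM in J/B. Its log2 fold change was -4.38 (standard error 0.442, adjusted p = 0.000101 in edgeR). Its exons share 1468 bases with the antisense gene *Tbx3os1*, and although alignment was set as stranded, the use of the strand in counting is not stated in the labels or methods, so reads of the 2 genes may not have been kept apart. The same limit holds for *Sox2* (1233 bases shared with an antisense gene), *Nanog* (655), *Pou5f1* (403 and 34), *Esrrb* (209 and 242) and *Tfcp2l1* (77). Those antisense genes are not among the genes counted, so their reads may have been added to the factor.

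**Figure D2:**
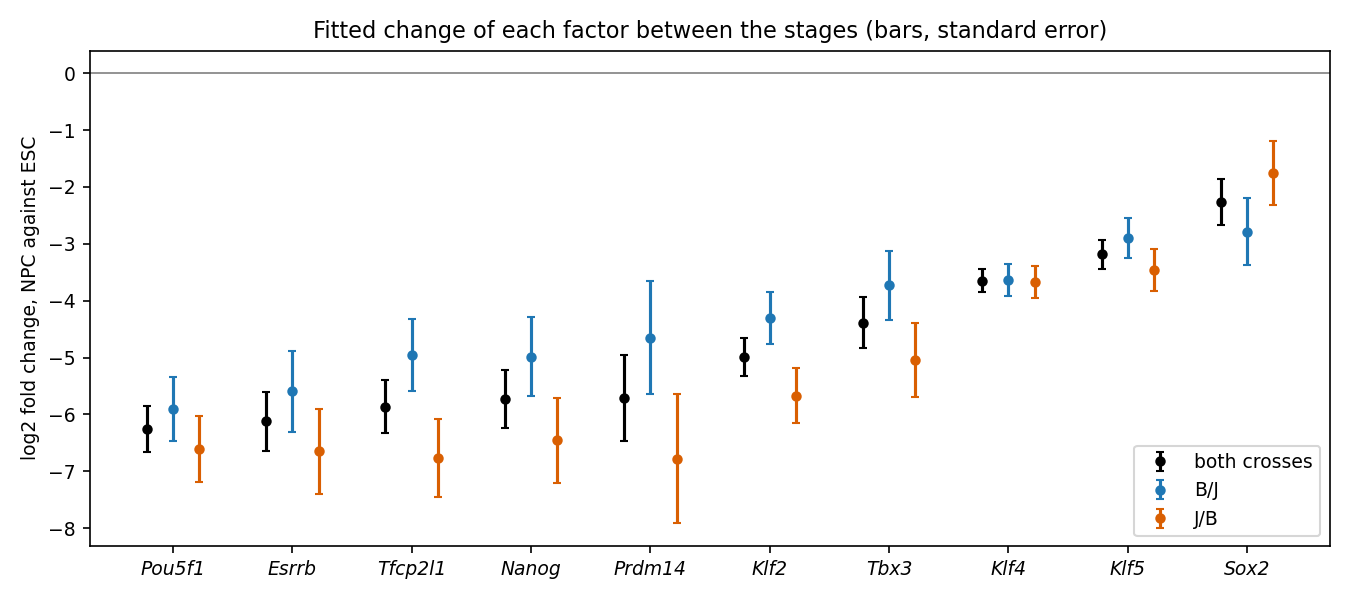
Fitted log2 fold change of each factor in NPCs against ESCs over both crosses (black), in B/J (blue) and in J/B (orange), with bars for the standard error, ordered by the value over both crosses. *Pou5f1* lies lowest at -6.26 and *Sox2* highest at -2.27; for every factor but *Sox2* the J/B value is below that of B/J, for *Klf4* by less than its standard error.

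As a share of the ESC mean of the same line, the level left in NPCs fell into a low and a high set with a graded middle. It was 0.853% to 2.49% for *Pou5f1*, 0.718% to 3.07% for *Esrrb*, 0.725% to 4.56% for *Tfcp2l1*, 0.818% to 5.02% for *Nanog* and 0.403% to 7.18% for *Prdm14* over the 4 NPC libraries. For *Klf2* it was 1.60% to 6.58% and for *Tbx3* 1.94% to 9.42%. *Klf4* kept 6.19% to 9.89%, *Klf5* 6.38% to 15.2% and *Sox2* 6.43% to 34.0%. The sets did not separate in every library. In B/J replicate 2, *Klf4* (6.19%) lay below *Prdm14* (7.18%), *Klf2* (6.58%) and *Tbx3* (9.42%). In B/J replicate 1, *Sox2* (6.43%) lay below *Klf4* (9.89%) and *Klf5* (11.5%).

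**Figure D3:**
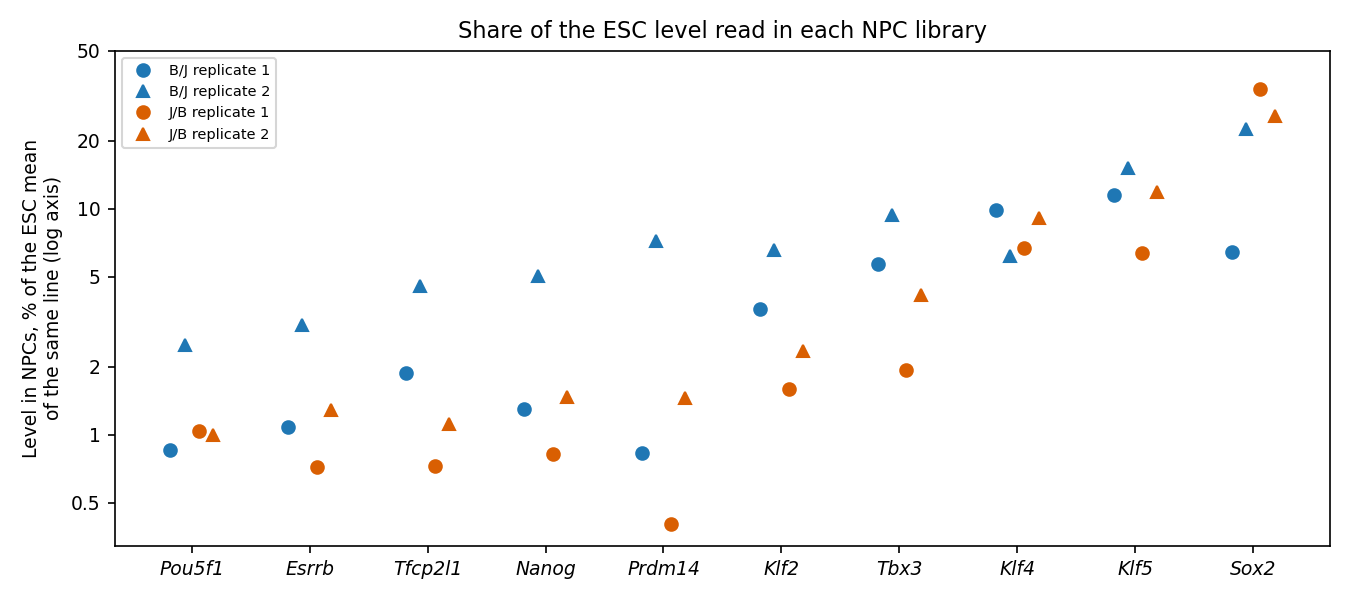
Level of each factor in the 4 NPC libraries as a percentage of the ESC mean of the same line (log axis), ordered by the mean share, with colours for the crosses and symbols for the replicate. B/J replicate 2 (blue triangles) is the highest library for 8 of the 10 factors, whereas *Sox2* ranges from 6.43% to 34.0%.

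The proportions among the factors were therefore not kept. Ratios within a library do not depend on the scaling. The log2 ratio of *Sox2* to *Pou5f1* normalised counts was between -2.37 and -1.02 in the 4 ESC libraries and between 1.26 and 3.36 in the 4 NPC libraries. That of *Klf4* to *Pou5f1* went from between -2.13 and -1.59 to between -0.57 and 1.65. The ratio of *Nanog* to *Pou5f1* overlapped between the stages, at -1.48 to -1.19 and -1.65 to -0.42. These ratios describe unequal change and do not show that any factor stayed constant.

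Per kilobase of annotated exon, the order in ESCs was *Pou5f1* at 628 ± 136 CPM per kb (SD, n = 4 libraries), *Sox2* at 297 ± 84.9, *Nanog* at 205 ± 53.2, *Klf4* at 164 ± 12.5, *Esrrb* at 136 ± 56.2, *Klf2* at 126 ± 36.9, *Tfcp2l1* at 84.4 ± 39.6, *Klf5* at 36.1 ± 6.41, *Tbx3* at 23.5 ± 14.6 and *Prdm14* at 8.48 ± 3.54. The order in NPCs was *Sox2* at 65.0 ± 32.4 CPM per kb, *Klf4* at 13.1 ± 3.18, *Pou5f1* at 8.53 ± 5.11, *Klf2* at 4.50 ± 2.92, *Nanog* at 4.38 ± 3.90, *Klf5* at 4.03 ± 1.21, *Esrrb* at 2.16 ± 1.62, *Tfcp2l1* at 1.61 ± 1.16, *Tbx3* at 1.10 ± 0.429 and *Prdm14* at 0.204 ± 0.258. *Pou5f1* moved from the first place to the third. In ESCs, *Nanog*, *Klf4*, *Esrrb* and *Klf2* followed each other within their spread, as did *Klf2*, *Nanog* and *Klf5* in NPCs. With the longest transcript in place of all exons, *Esrrb* passed *Klf4* in ESCs and *Klf5* passed *Nanog* and *Klf2* in NPCs.

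The second question was whether the crosses differed. None of the 10 factors was called in the interaction of stage and cross, where edgeR called 0% of genes (0 of 16399; without adjustment 573 were below 0.05, DESeq2 called 8 and limma-voom 0). For *Klf2* the fall was larger in J/B by 1.37 on the log2 scale (standard error 0.574) and for *Tfcp2l1* by 1.81 (standard error 0.770), with unadjusted p of 0.0456 and 0.0483 and an adjusted p of 0.9999 for both in edgeR. For *Sox2* the difference was 1.04 the other way (standard error 0.774, unadjusted p = 0.219 in edgeR's test).

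Between the lines in ESCs, 0% of genes were called (0 of 16399, with 346 at an unadjusted p below 0.05, 10 by DESeq2 and 0 by limma-voom), and no factor reached an unadjusted p below 0.05. The log2 differences of the 10 factors, J/B against B/J, ran from -0.24 for *Esrrb* to 0.83 for *Tbx3*, the latter with J/B replicate 1 at 372 CPM. In NPCs 0.0061% of genes were called (1 gene, with 1050 at an unadjusted p below 0.05, 68 by DESeq2 and 1 by limma-voom), none of them among the 10 factors. *Sox2* was the single factor higher in J/B NPCs (0.92, standard error 0.551). The other 9 were lower in the fit, from -0.19 for *Klf4* to -2.02 for *Prdm14*. *Klf2* (-1.46), *Nanog* (-1.44) and *Tfcp2l1* (-1.39) were below 0.05 in edgeR without adjustment, with adjusted p of 0.734 to 0.770. B/J replicate 2 was the highest NPC library for all 3. With a term for the replicate number within each stage, a fit added after the data were seen, edgeR again called none of the 10 between the lines in either stage or in the interaction. For the NPCs it called 0.0183% of genes lower and 0.0061% higher in J/B (4 genes, with 3062 at an unadjusted p below 0.05, 814 by DESeq2 and 235 by limma-voom). The tools differed there for the factors, since DESeq2 called 5 lower (*Klf2*, *Esrrb*, *Nanog*, *Tfcp2l1* and *Prdm14*) and limma-voom 1 (*Klf2*). *Klf2* was at 9.94 and 18.3 CPM in B/J replicates 1 and 2 and at 4.17 and 6.10 CPM in those of J/B (-1.42, standard error 0.142, adjusted p = 0.0648 in edgeR and 0.0495 in limma-voom). In the interaction DESeq2 called *Klf2* and *Tfcp2l1*, among 180 of the 16399 genes tested, where edgeR and limma-voom called 0 genes.

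The third question was how the factors varied among libraries of one stage. The labels number the libraries of each group 1 and 2 without saying what the number stands for, and libraries were made with either of 2 kits and read on either of 2 instruments, without a record of which had which. Kit, instrument and culture can therefore not be told apart here. In ESCs, both libraries numbered 2 lay below both numbered 1 for 6 factors (*Pou5f1*, *Nanog*, *Esrrb*, *Tfcp2l1*, *Prdm14* and *Tbx3*), as for 27.9% of genes tested, and above them for *Sox2* and *Klf2*, as for 28.3% of genes.

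In a fit with a term for the number within each stage, *Esrrb* was lower in the ESC libraries numbered 2 by -1.05 on the log2 scale (standard error 0.169, adjusted p = 0.0412 in edgeR). *Klf2* was higher by 0.74 (standard error 0.129, adjusted p = 0.0470). In that comparison 0.982% of genes were called lower and 1.45% higher. The other factors were not called by edgeR in this fit. *Prdm14* (-1.04), *Tbx3* (-0.997) and *Tfcp2l1* (-0.92) had adjusted p of 0.0820 to 0.110 and *Nanog* (-0.63) of 0.193. *Pou5f1* (-0.54), *Sox2* (0.70), *Klf5* (0.27) and *Klf4* (-0.07) had adjusted p of 0.364 to 0.901. Both calls were lost when any 1 ESC library was left out, where the adjusted p reached 0.423 for *Esrrb* and 0.455 for *Klf2*, while the log2 differences stayed at -1.06 to -1.02 and 0.73 to 0.75 with 1 library left out. The log2 ratio of *Esrrb* between the 2 libraries was nearly the same in the lines, since it fell from 1197 to 592 CPM in B/J and from 1029.7 to 488 CPM in J/B.

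Some genes of other states moved with this number in ESCs. Called higher in the libraries numbered 2 were 2 of 10 formative genes, 2 of 10 genes of BMP4 signalling, 1 of 7 germ cell regulators, 1 of 8 neural precursor markers and 0 of 5 mesoderm markers, beside 1.45% of genes tested, and none of these lists had a gene called lower. Most of their genes were thus not called, such as *Id3* (0.02) and *Dnmt3a* (-0.54). *Otx2*, a factor of the formative epiblast, was read at 1.52 and 1.12 CPM in the ESC libraries numbered 1 (B/J, J/B) and at 26.7 and 25.6 CPM in those numbered 2 (log2 difference 4.30, adjusted p = 0.0090 in edgeR). *Fgf8* (3.79, adjusted p = 0.0247) and *T*, a mesoderm factor listed here with the *Tbx* family (3.27, adjusted p = 0.0199), were also higher. So were *Id1* (1.31, adjusted p = 0.0251) and *Id2* (2.85, adjusted p = 0.0393), targets of BMP signalling, and *Prdm1* (1.72, adjusted p = 0.0311), *Sox11* (1.82, adjusted p = 0.0483) and the neural precursor marker *Fabp7* (adjusted p = 0.0481), the last at most 0.599 CPM in ESCs. Of the 9 trophoblast markers 3 were higher (*Cdx2*, *Hand1* and *Ascl2*), and the sum of all 9 was 15.1 and 23.1 CPM in the libraries numbered 1 and 88.8 and 52.2 CPM in those numbered 2. The most abundant of the 9 in ESCs, *Krt8* (1.91) and *Krt18* (1.53), were not called. Nor were *Gata3* (2.39) and *Elf5* (-1.81), and *Tpbpa* and *Pappa2* had no count in any ESC library. No gene of the list of 12 other ESC transcription factors was called. Their part in the levels of *Esrrb* and *Klf2* was not tested.

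**Figure D4:**
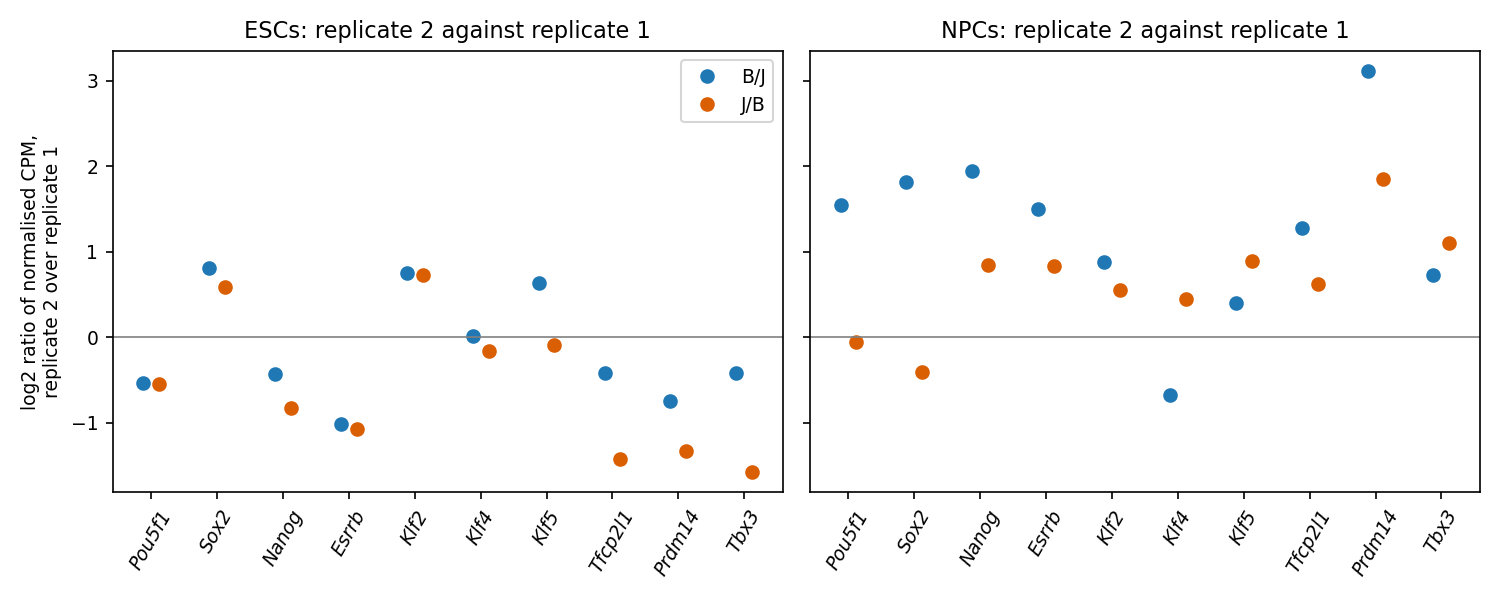
Log2 ratio of normalised CPM in replicate 2 over replicate 1 for each factor, in ESCs (left) and NPCs (right), with a point for each line. In ESCs the points of *Esrrb* lie near -1 and those of *Klf2* and *Sox2* above 0 in both lines. In NPCs those of *Nanog*, *Esrrb*, *Klf2*, *Klf5*, *Tfcp2l1*, *Prdm14* and *Tbx3* lie above 0 in both lines, while *Pou5f1*, *Sox2* and *Klf4* differ in sign between the lines.

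In NPCs the number went with other levels. Both libraries numbered 2 lay above both numbered 1 for 5 factors (*Nanog*, *Esrrb*, *Klf5*, *Prdm14* and *Tbx3*), as for 22.1% of genes tested, and below for 0 factors, as for 21.8%. None of the 10 was called by edgeR, which called 0.238% of genes higher and 0.0976% lower (55 genes, against 3360 at an unadjusted p below 0.05, 783 by DESeq2 and 857 by limma-voom). Of the factors, 7 had an unadjusted p below 0.05. The largest differences were those of *Prdm14* (2.65, standard error 0.399, adjusted p = 0.0535), *Nanog* (1.42, standard error 0.272, adjusted p = 0.0722) and *Esrrb* (1.18, standard error 0.183, adjusted p = 0.0549). With 1 library left out they ran from 1.80 to 3.10, from 0.82 to 1.95 and from 0.81 to 1.51. Of the 8 ESC surface and effector genes, 4 were called higher in the NPC libraries numbered 2. *Dppa5a* was read there at 76.5 CPM in B/J and 24.7 CPM in J/B, after 16.8 and 6.22 CPM in the libraries numbered 1 (log2 difference 2.09, adjusted p = 0.0353 in edgeR). *Tdh* (1.67), *Fgf4* (1.63) and *Tdgf1* (1.28) were the others called. Of the rest of these 8, *Fbxo15* (1.46) and *L1td1* (0.88) were higher and *Trim28* (-0.16) and *Lin28a* (-0.93) lower, all without a call. The sum of the 8 rose with the number from 644 to 842 CPM in B/J and fell from 1026 to 643 CPM in J/B. *Nr5a2* (1.97, adjusted p = 0.0353), an orphan receptor that can drive *Pou5f1*, was the 1 gene called of the 12 other ESC transcription factors. Of those not called, *Sall4* was at -0.62, *Utf1* at -0.04 and *Zscan10* at 0.06. Some marker sums of other cells differed by number in the same direction in both lines. The summed neuron markers were at 236 and 651 CPM in the NPC libraries numbered 1 (B/J, J/B) and at 867 and 1309 CPM in those numbered 2, and the trophoblast markers at 3141 and 1682 CPM against 1668 and 1136 CPM. The endoderm sum was also lower in both lines and the squamous sum higher. The sums of neural precursor, of fibroblast and mesenchyme, and of mesoderm markers went opposite ways in the lines. No gene of these lists or of the neural precursor list was called, the nearest being *Dcx* (1.70) and *Fabp7* (1.41), both with an adjusted p of 0.0527 in edgeR. The part of these markers in the levels of the factors was not tested.

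The change with the number therefore had opposite signs in the stages for part of the network. The difference of the 2 terms, a contrast chosen after the values were seen, was called for *Esrrb* (2.23, standard error 0.249, adjusted p = 0.0299 in edgeR) and *Prdm14* (3.68, standard error 0.474, adjusted p = 0.0387). In that contrast 0.781% of genes were called higher and 0.579% lower. Both calls were lost with library totals, with limma-voom and without any 1 of the ESC libraries or of the B/J NPC libraries. Over the alternatives the value lay between 1.87 and 2.56 for *Esrrb* and between 2.85 and 4.15 for *Prdm14*.

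Transcripts of relatives of the 10 factors in the same gene families were compared as well. The counts that follow stand beside 37.5% of genes called higher and 31.9% called lower over the genes tested. Of the 18 other *Sox* genes, 10 were higher in NPCs, 2 lower and 6 not called, with a median log2 fold change of 1.85. With library totals 13 were higher and 1 lower, and with the housekeeping genes 14 and 1. *Sox9*, a factor of neural stem cells and glia, rose from 0.456 ± 0.335 to 66.1 ± 13.8 CPM (SD, n = 4 libraries each), *Sox5* from 0.316 ± 0.0730 to 13.9 ± 6.13 CPM and *Sox6* from 0.478 ± 0.279 to 18.1 ± 9.09 CPM. The falls were those of *Sox15* (30.8 ± 3.51 to 8.97 ± 6.70 CPM) and *Sox7* (7.22 ± 1.43 to 3.96 ± 2.71 CPM), and the latter was not called with library totals. *Sox11* and *Sox4*, factors of young neurons, had the highest NPC levels, at 594 ± 279.6 and 419 ± 153 CPM, and *Sox12* was at 106 ± 22.04 CPM, with a rise called with library totals (1.03 on the log2 scale) and not with TMM (0.57). Per kilobase, *Sox2* stood at 297 ± 84.9 CPM in ESCs against 4.58 ± 1.74 for *Sox4* and 10.4 ± 6.75 for *Sox11*. In NPCs *Sox2* stood at 65.0 ± 32.4 CPM per kb, *Sox4* at 87.4 ± 31.9 and *Sox11* at 71.5 ± 33.6, within their spread.

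In the *Pou* family 11 of the other 14 genes were tested, of which 5 were higher, 2 lower and 4 not called (median log2 fold change 0.89). The largest rises were those of 3 of the 4 class III genes, which are known from neural cells. The fourth, *Pou3f1*, was not called (14.0 ± 9.02 to 18.3 ± 6.39 CPM). *Pou3f3* went from 0.524 ± 0.346 to 92.7 ± 36.5 CPM (log2 fold change 7.40, standard error 0.506, adjusted p = 2.6e-05 in edgeR) and *Pou3f2* from 0.601 ± 0.289 to 102 ± 49.0 CPM. *Pou3f4* went from 0.845 ± 0.551 to 29.6 ± 11.9 CPM. *Pou4f2* (33.5 ± 8.63 to 5.07 ± 2.88 CPM) and *Pou2f1*, or OCT1 (182 ± 27.0 to 70.3 ± 24.0 CPM), fell. Per kilobase in NPCs, the mean of *Pou3f2*, 18.3 ± 8.77 CPM, was above that of *Pou5f1*, 8.53 ± 5.11 CPM, but in B/J replicate 1 they were at 5.29 and 5.55 CPM, the opposite order, whereas in ESCs *Pou5f1* was at 628 ± 136 and *Pou3f2* at 0.108 ± 0.0518.

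Of the 14 other *Klf* genes, 8 were lower, 5 higher and 1 not called (median log2 fold change -1.21). *Klf9* fell from 301 ± 44.6 to 22.3 ± 6.38 CPM, *Klf8* from 86.4 ± 9.42 to 15.5 ± 1.65 CPM and *Klf15* from 11.7 ± 1.97 to 3.48 ± 1.004 CPM. *Klf6* rose from 52.0 ± 13.4 to 224 ± 56.6 CPM, *Klf7* from 2.21 ± 1.17 to 8.39 ± 3.22 CPM and *Klf11* from 26.3 ± 4.42 to 48.2 ± 12.4 CPM. *Klf13* rose to 165 ± 45.6 CPM and *Klf10* fell to 66.9 ± 16.6 CPM, which with *Klf6* were the highest in NPCs. *Klf2*, *Klf4* and *Klf5* were thus among several falling members of their family, and per kilobase in NPCs *Klf6* (50.1 ± 12.7 CPM) stood above *Klf4* (13.1 ± 3.18 CPM).

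**Figure D5:**
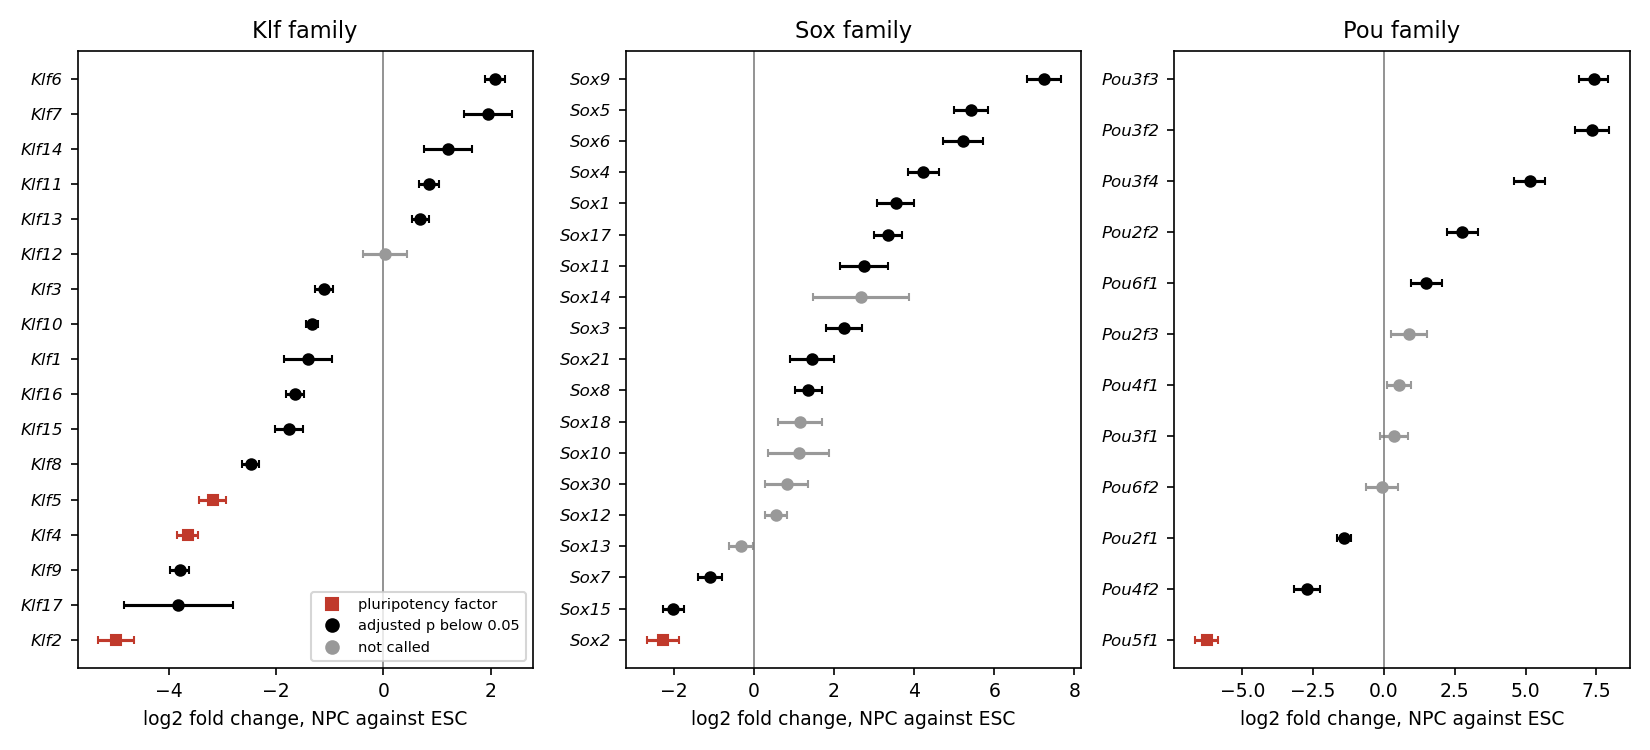
Fitted log2 fold change, NPC against ESC, with standard errors, of all tested genes of the *Klf*, *Sox* and *Pou* families, with the pluripotency factors as red squares, other called genes in black and genes not called in grey. *Klf2*, *Sox2* and *Pou5f1* lie at the lower end of their family, while *Sox9*, *Pou3f3* and *Pou3f2* rose by 7.24 to 7.40.

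The smaller families showed both directions. *Esrrg* rose from 0.0694 ± 0.0588 to 5.95 ± 2.97 CPM, whereas *Esrra* went from 36.7 ± 7.61 to 25.8 ± 5.002 CPM with a log2 fold change of -0.52 that turned to 0.12 with the housekeeping genes. Of 5 relatives of *Tfcp2l1*, *Tfcp2* rose (12.6 ± 1.76 to 24.2 ± 5.24 CPM) and *Grhl3* fell (23.4 ± 6.44 to 6.80 ± 3.002 CPM, not called with the housekeeping genes), and *Ubp1* (128 ± 10.4 CPM in NPCs) and *Grhl2* (20.5 ± 7.04 CPM) were not called. Of 13 *Prdm* relatives 5 were higher and 3 lower with TMM, and 9 were higher and 1 lower with library totals or the housekeeping genes. *Prdm8* (0.187 ± 0.0806 to 9.08 ± 5.15 CPM), *Prdm13* and *Prdm12*, all of the nervous system, rose most. *Prdm10* and *Prdm4* were lower with TMM (-0.47 and -0.44) and turned to 0.18 and 0.19 with the housekeeping genes. *Prdm2* had the highest NPC level (148 ± 15.5 CPM) and was not called with TMM (0.26), but was higher with library totals (0.75). Of 16 *Tbx* relatives 11 were tested, 6 higher and 1, *Mga*, lower (351 ± 84.0 to 138 ± 28.5 CPM). *Tbr1*, a factor of cortical neurons, rose from 0.0909 ± 0.0612 to 11.8 ± 15.8 CPM, *Tbx2* to 2.89 ± 1.44 CPM and *Tbx15* to 8.10 ± 2.44 CPM. *T* (51.1 ± 63.7 CPM in NPCs) and *Eomes* (14.95 ± 13.9 CPM) were not called.

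Other ESC genes were compared between the stages, beside 31.9% of all genes called lower and 37.5% higher. All 12 other ESC transcription factors of the list were lower in NPCs (median log2 fold change -3.88, with 0.17 for all genes), of which 11 remained called with library totals or the housekeeping genes, the exception being *Mycn*. The largest falls were those of the nuclear receptors *Nr0b1* (186 ± 48.7 to 2.31 ± 2.05 CPM) and *Nr5a2* (127 ± 20.1 to 1.85 ± 1.86 CPM) and of *Zscan10* (251 ± 35.4 to 6.54 ± 2.01 CPM). All 8 ESC surface and effector genes fell as well, their sum going from between 7873 and 10388 CPM to between 643 and 1026 CPM, with *Trim28* the most abundant. In NPCs *Trim28* (561 ± 78.5 CPM) and *Lin28a* (135 ± 124 CPM) stood highest, ahead of *Dppa5a* (31.1 ± 31.2 CPM). Of 7 germ cell regulators 5 were lower and none higher, among them *Dppa3* (28.6 ± 14.2 to 0.776 ± 0.750 CPM), *Dnd1* (14.2 ± 2.80 to 1.15 ± 0.452 CPM) and *Ddx4* (18.1 ± 4.59 to 2.27 ± 1.06 CPM). With library totals 3 of these were lower and 2, *Prdm1* and *Tfap2c*, higher.

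The counts for the pathways that maintain the network in culture again stand beside 31.9% of all genes called lower and 37.5% higher. Of 9 genes of LIF and STAT3 signalling, 4 were lower, 2 higher and 3 not called. The targets *Bcl3* (58.2 ± 5.72 to 10.9 ± 5.57 CPM), *Socs3* (129 ± 15.7 to 33.7 ± 7.96 CPM) and *Pim3* (145 ± 21.98 to 66.1 ± 24.3 CPM) fell. The kinases *Jak2* (6.62 ± 2.71 to 52.9 ± 6.29 CPM) and *Jak1* (50.1 ± 10.6 to 121 ± 20.1 CPM) rose, and the receptor chains *Lifr* and *Il6st* and *Stat3* itself were not called. With library totals *Il6st* and *Stat3* were called higher and *Pim1* lost its call (3 lower, 4 higher). With the housekeeping genes *Lifr* was called higher as well (3 lower, 5 higher).

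Of 9 genes of GSK3 and β-catenin signalling, 4 were lower, 2 higher and 3 not called with TMM. With library totals 3 were lower and 4 higher. With the housekeeping genes 1, *Tcf7*, was lower and 4 were higher, *Apc* and *Axin2* being added, while the log2 fold change of *Gsk3a* turned from -0.45 to 0.18. *Lef1* (87.3 ± 36.0 to 29.8 ± 8.53 CPM), *Tcf7* (54.8 ± 11.6 to 22.2 ± 2.53 CPM) and *Axin1* (132 ± 7.64 to 69.6 ± 6.28 CPM) fell, although *Lef1* and *Axin1* were not called with the housekeeping genes. *Gsk3b*, which encodes a kinase inhibited in the ESC medium, rose from 73.4 ± 20.9 to 212 ± 49.5 CPM, and *Ctnnb1* from 912 ± 38.3 to 1182 ± 76.1 CPM. *Tcf7l1*, the repressor of the network, was not called, and its log2 fold change of -0.50 turned to 0.10 with the housekeeping genes.

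Of 10 genes of BMP4 signalling, 3 were lower, 6 higher and 1 not called. The ligand *Bmp4* (88.3 ± 23.3 to 19.0 ± 4.54 CPM) and the targets *Id3* (105 ± 7.91 to 50.05 ± 4.88 CPM) and *Id1* (58.9 ± 29.7 to 26.3 ± 4.37 CPM) fell, the last not called with library totals. The receptors *Bmpr1b* (0.822 ± 0.207 to 8.64 ± 2.65 CPM) and *Bmpr2* (41.3 ± 8.71 to 114 ± 25.6 CPM) and the effector *Smad5* (55.5 ± 7.38 to 148 ± 11.1 CPM) rose.

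The formative and primed epiblast genes are switched on when the naive factors fall. Of 10, 2 were lower, 2 higher and 6 not called between the stages, beside 31.9% of all genes called lower and 37.5% higher. A difference from these shares was not tested. With the housekeeping genes 1 was lower. *Dnmt3b*, a DNA methyltransferase, fell from 491 ± 304 to 50.1 ± 16.4 CPM and *Lef1* is given above. *Sall2* rose from 17.8 ± 5.21 to 90.5 ± 36.0 CPM and *Sox3* from 8.04 ± 2.71 to 41.6 ± 31.9 CPM, both of them also neural genes. Since no library was taken between the ESC stage and day 12 here, a rise of formative genes in between would not be seen.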

How the data were processed

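RNA-seq counts of 8 libraries were analysed. Paired-end reads had been mapped by the authors to a SNP-masked mm39 genome (TopHat2, annotation from refGene) and filtered with samtools to properly paired alignments of mapping quality 20 or more. The deposited tables hold raw read counts for 26263 genes, both alleles together, with 5 closing entries for reads without a gene (5.76% to 10.9% of a library without feature, at most 0.554% ambiguous), which were left out. The submitters' processing notes also name HTSeq, edgeR and DESeq2, without version or use of the strand. Groups were taken from the sample titles.

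Tests on the counts used edgeR 4.0.16 under R 4.3.3 (TMM on the genes kept by filterByExpr at a minimum count of 10, 4 group means, robust quasi-likelihood test, common dispersion 0.113), limma 3.58.1 and DESeq2 1.42.0. P-values were adjusted over the 16399 genes tested, at a threshold of 0.05. The standard error is the log2 fold change divided by the root of F. A second fit added terms for the replicate number within each stage, which leaves few degrees of freedom. The alternatives were RLE factors, library totals, *Gapdh*, *Gusb* and *Tbp*, DESeq2, limma-voom, a replicate block, no filter, a filter at a mean of 1 CPM, the test without robust estimation, only the libraries compared, each library left out (the spread of a lone library was taken from the other groups), gene length and, added after seeing the data, libraries of either number alone and the crosses in the second fit.

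The 10 factors and the lists of related genes were chosen with earlier results of these data known. From each list the genes named were up to 3 of the largest falls and up to 3 of the largest rises with an adjusted p below 0.05 and a mean of at least 1 CPM over the 8 libraries, and in each family the 3 relatives highest in NPCs; genes named for the replicate number and for losing a call were chosen after their values were seen. Markers were summed for neural precursors, neurons, trophoblast, fibroblasts and mesenchyme, endoderm, mesoderm, squamous epithelium and ESCs. Positions, lengths and promoters came from GENCODE vM39 on GRCm39, the build of the files. Allelic counts and protein sequences were not used here. Some items covered by the rules above are not reported here.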

Additional observations from a re-analysis of the deposited data

Results flagged for a closer look

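In the groups of 4 libraries of a stage, 36 sets of values (the 10 factors and 8 marker sums) were looked at with Dixon's test, of which 8 had a library beyond the critical value at 95%; chance gives about 1 in 20. In NPCs, B/J replicate 2 stood above the others for *Pou5f1* (49.98 CPM, against 17.1 to 19.5 CPM), *Nanog* (37.3 CPM, against 6.22 to 11.1 CPM) and *Prdm14* (2.97 CPM, against 0.179 to 0.646 CPM). In ESCs, J/B replicate 1 stood above the others for *Tbx3* (372 CPM, against 119 to 159 CPM), for the sum of fibroblast and mesenchyme markers (80.1 CPM, against 9.68 to 13.1 CPM) and for that of squamous markers (0.907 CPM, against 0.171 to 0.260 CPM). In NPCs, J/B replicate 1 had the highest sum of mesoderm markers (20.5 CPM, against 3.23 to 4.88 CPM) and the lowest of squamous markers (14.5 CPM, against 64.8 to 73.6 CPM).

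The difference between libraries numbered 2 and 1 was not the same in both stages for 2 factors, by a contrast within the fit chosen after the values were seen. It was higher in NPCs than in ESCs by 2.23 on the log2 scale for *Esrrb* and by 3.68 for *Prdm14*.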

How the results depend on the processing

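All 10 factors stayed lower in NPCs over both crosses and in B/J under every alternative run. In J/B, 9 of the 10 did with library totals, the housekeeping genes, no filter on low counts, and without ESC J/B replicate 2, NPC J/B replicate 1 or NPC J/B replicate 2, in each case because *Sox2* was lost. The call counts of the crosses and of their interaction stayed at 0 factors. With the replicate block, no count of factors changed (*Sox2* in J/B -1.63, adjusted p = 0.0218). With a replicate block within each stage, added after the data were seen, the counts for the crosses and the interaction also stayed at 0 in edgeR, while in that fit DESeq2 called 5 factors between the lines in NPCs and 2 in the interaction, and limma-voom 1 and 0. Deviations of same-numbered libraries correlated at 0.613 between the ESC groups and 0.507 between the NPC groups but at 0.0474 to 0.0919 across the stages. The labels do not say whether a number links an ESC library to an NPC library, and these correlations cannot show it.

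Counts of factors called by the replicate number were not stable. In ESCs, lower calls (1) became 0 with library totals and 4 with DESeq2, and lay between 0 and 2 with a library left out; higher calls (1) became 0 with a mean of at least 1 CPM and lay between 0 and 2 with a library left out. In NPCs, higher calls (0) became 4 with the housekeeping genes, 5 with DESeq2, 2 with limma-voom and 2 without a filter. For the difference of the stages, higher calls (2) became 0 with library totals, 4 with the housekeeping genes, 5 with DESeq2 and 0 with limma-voom, and lay between 0 and 4 with a library left out. The cause was not tested. Over all genes tested, edgeR called 398 by the replicate number in ESCs, 55 in NPCs and 223 for the difference of the stages. DESeq2 called 1536, 783 and 934 genes in these comparisons, and limma-voom 161, 857 and 0. Signs turned for *Klf4* in ESCs with library totals (0.00029) and the housekeeping genes (0.0697) and in NPCs with the housekeeping genes (0.100). With 1 library left out, the ESC values ran from -0.140 to 0.0068 for *Klf4* and from -0.0718 to 0.627 for *Klf5*. The NPC values ran from -0.676 to 0.426 for *Klf4*, from -0.0774 to 1.55 for *Pou5f1* and from -0.428 to 1.82 for *Sox2*.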
